A study of Mus musculus with 10 samples.

Results

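Arntl (which encodes BMAL1), Clock, Npas2, Rora, Nr1d1, Nr1d2, Bhlhe40 and Bhlhe41 were followed in the liver RNA-seq libraries of fasted and refed mice. They were chosen by gene symbol as the activators of the circadian clock with the nuclear receptors and repressors closest to them, 8 of the 41388 genes counted. All 8 passed the filter on low counts (over 1 CPM, a count scaled to the library total, in at least 1 library), which kept 13477 genes. Polyadenylated RNA was sequenced from 10 livers, 1 library per mouse, of adult C57B/6J littermates 12 weeks old.

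The 2 WT Fed mice carried the floxed Nampt gene intact, and the labels give 22 h without food and then 2 h of refeeding. The 3 WT Fasting mice had the same genotype and went 24 h without food. The 5 NAMPT LKO Fasting mice were fasted for as long and also carried Albumin-cre, which removes Nampt from hepatocytes and leaves it in the other cells of the liver. All mice were kept on aspen bedding for the fast. The study's results and figure legend describe a shorter fast, and the legend names random-fed controls without a refeeding step. The label times are those used here. The labels give no hour of collection for any mouse, so the phase of the clock at collection was not known, and group and hour cannot be told apart.

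BMAL1 pairs with CLOCK, or with the related NPAS2, and the pair binds E-boxes in DNA to switch on its targets. Among these targets are the REV-ERB receptors (Nr1d1 and Nr1d2) and the proteins DEC1 and DEC2 (Bhlhe40 and Bhlhe41), and both kinds repress. REV-ERBs shut off Arntl and its partners by binding the same response element that the activating receptor RORA uses, while DEC1 and DEC2 bind E-boxes and oppose BMAL1 there. In liver this circuit times much of carbohydrate and lipid metabolism, and meals can reset it.

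The promoters of 7 members were in the RefSeq table (GRCm38.p6), as 10 windows of 300 bases each, from 250 bases before to 50 after a transcription start; Bhlhe40 was not in the table. The motifs searched, on both strands, were the palindromic E-box CACGTG, the half-site AGGTCA of the REV-ERB and ROR element, and the D-box TTATGNAA bound by the DBP family. The E-box was in 1 of the 10 windows, that of Bhlhe41, against 7.15% of the 32851 promoters in the table. The half-site was in 3 of the 10 windows, at the second start of Arntl, the third start of Clock and the start of Nr1d2, against 16.3% of all promoters. The D-box was in 0 windows, against 3.38% of all. Some windows overlap others of the same gene, as in Arntl and Clock, so the 10 windows are not separate promoters. Their shares are not read as an enrichment. A match describes letters only. The window of Nr1d1, which encodes the other REV-ERB, held none of the motifs searched and is not printed. Bhlhe41 is the member that differed most between fed and fasted livers. Arntl is a target and Nr1d2 a receptor of the REV-ERB loop. The windows below were picked for these genes from those with a match. Each is printed 5′ to 3′ along its gene, with the matched motif in capitals: the E-box at position -153 from the start of Bhlhe41 (chr6:145865371-145865670, minus strand), the half-site at position 32 from the second start of Arntl (chr7:113207261-113207560, plus strand) and the half-site at position -77 from the start of Nr1d2 (chr14:18239057-18239356, minus strand).
Bhlhe41: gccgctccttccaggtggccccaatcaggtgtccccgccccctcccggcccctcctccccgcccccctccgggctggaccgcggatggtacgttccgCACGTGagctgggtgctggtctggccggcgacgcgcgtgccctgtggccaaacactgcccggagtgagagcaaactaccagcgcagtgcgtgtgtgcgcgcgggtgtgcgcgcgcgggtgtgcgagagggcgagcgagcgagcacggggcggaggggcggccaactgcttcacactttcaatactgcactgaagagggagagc
Arntl: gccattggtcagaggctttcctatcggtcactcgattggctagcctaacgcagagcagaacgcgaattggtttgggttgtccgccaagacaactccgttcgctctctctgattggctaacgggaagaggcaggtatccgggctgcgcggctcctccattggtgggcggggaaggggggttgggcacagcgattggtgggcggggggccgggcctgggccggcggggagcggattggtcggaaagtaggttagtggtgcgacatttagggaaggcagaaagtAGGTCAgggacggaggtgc
Nr1d2: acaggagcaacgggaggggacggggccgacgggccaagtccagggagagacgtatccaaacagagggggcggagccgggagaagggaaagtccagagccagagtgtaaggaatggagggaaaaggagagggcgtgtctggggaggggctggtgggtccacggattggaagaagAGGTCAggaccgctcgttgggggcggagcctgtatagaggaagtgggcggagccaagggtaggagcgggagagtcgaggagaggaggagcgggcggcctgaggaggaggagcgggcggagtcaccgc

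Total counts ran from 30603080 to 43434139 per library. Nampt, the targeted gene, lay between 11.8 and 15.3 CPM in the 5 NAMPT LKO livers and between 63.0 and 141 CPM in the 5 livers with intact Nampt. Hepatocyte markers (5 genes) summed to between 65760 and 102600 CPM in every library, while 2 markers of adipose tissue summed to at most 0.277 CPM and 3 of pancreas to at most 0.320 CPM. WT Fasting mouse 3 stood apart in 3 measures: mitochondrial genes took 7.42% of its counts (10.4% to 21.1% in the other livers, the highest in NAMPT LKO mouse 5), its 4 Kupffer cell markers summed to 315 CPM (132 to 151 CPM in WT Fed livers, at least 158 CPM in every WT Fasting liver and 113 to 262 CPM in NAMPT LKO livers), and its 3 markers of other leukocytes to 13.7 CPM, the highest of the 10. The 3 bile duct markers summed to between 3.23 and 5.88 CPM in NAMPT LKO livers and between 1.24 and 2.43 CPM in WT livers. These sums did not overlap between genotypes, nor did the Kupffer cell sums between WT Fed and WT Fasting livers. Of single genes tested, 3.98% did not overlap between NAMPT LKO and WT Fasting livers and 49.6% between WT Fasting and WT Fed livers. The part of these markers in the results was not tested. For the 8 members, results that rest on WT Fasting mouse 3 are given with and without it. In a whole liver, fewer cells of a type and less RNA per cell cannot be told apart. Each library was taken as 1 mouse, as the study describes the animals. The study's figure legend gives 4 WT Fasting mice for the transcriptomics, whereas the labels give 3 WT Fasting libraries. Levels below are CPM after TMM normalization unless RPKM is named, and folds and p-values are from edgeR's quasi-likelihood test with Benjamini-Hochberg adjustment over all 13477 genes.

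WT Fasting and WT Fed livers, both with Nampt intact, were compared first. WT Fed mice had also fasted, for 22 h before 2 h of refeeding, and no liver came from an unfasted mouse. A difference can thus go with continued fasting or with refeeding, which cannot be told apart here. Fed below means refed, and rose or fell means a higher or lower level in the fasted livers. Bhlhe41 was 6.33-fold lower in WT Fasting livers and was the 1 member of 8 to pass the test, against 7.02% of all genes tested. Rora was 1.43-fold higher and lay just outside the threshold. Clock and Nr1d2 lay within a few percent of the fed level on average. Nr1d1 and Bhlhe40 were low in WT Fasting mice 1 and 2 and at the fed level in mouse 3.

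Among the repressors, Bhlhe41 (chr6:145858243-145865558, minus strand of GRCm38, 5 exon blocks) was at 11.2 and 7.24 CPM in WT Fed mice 1 and 2, and at 0.863, 0.806 and 2.65 CPM in WT Fasting mice 1 to 3. The groups did not overlap, and the highest fasted liver was under every fed one. The log2 fold change was -2.66 (standard error 0.50, edgeR adjusted p = 0.0105). The fasted livers of both genotypes held 26 to 117 reads of Bhlhe41 each and the fed ones 314 and 500, which makes the relative counting error larger in the fasted livers. WT Fed has 2 mice, and the call was lost without either of them, with the remaining one taken to vary like the other groups (edgeR adjusted p = 0.101 without WT Fed mouse 1 and 0.0533 without mouse 2), while the log2 fold change was between -3.47 and -2.33 over the 5 fits that left out 1 liver.

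Bhlhe40 (chr6:108660629-108666925, plus strand), the paralogue of Bhlhe41 and a repressor at E-boxes like it, was at 77.6 and 60.1 CPM in WT Fed livers and at 20.2, 29.7 and 68.4 CPM in WT Fasting mice 1 to 3. Mouse 3 lay inside the fed range and the other fasted mice far under it. The log2 fold change was -0.80 (standard error 0.42, edgeR adjusted p = 0.294). Without WT Fasting mouse 3 it was -1.47 (edgeR adjusted p = 0.0228).

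Nr1d1 (chr11:98767932-98775333, minus strand), which encodes REV-ERBα, was at 101 and 99.9 CPM in WT Fed livers and at 43.4, 58.5 and 108 CPM in WT Fasting mice 1 to 3. Mouse 3 exceeded both fed livers, and the other fasted mice were well under them. The log2 fold change was -0.52 (standard error 0.31, edgeR adjusted p = 0.361), and -0.99 without mouse 3 (edgeR adjusted p = 0.0281). Without mouse 3, 3 of the 8 members passed the test, all lower in fasted livers: Nr1d1, Bhlhe40 and Bhlhe41 (log2 fold change -3.47). In that fit 5.85% of all genes tested passed. Mouse 3 was the highest WT Fasting liver in these 3 genes, so leaving it out lowers their fasted mean in any case. Without WT Fasting mouse 1 the log2 fold change was -0.28 for Nr1d1 (edgeR adjusted p = 0.628) and -0.50 for Bhlhe40 (0.514). Without mouse 2 it was -0.41 for Nr1d1 (0.585) and -0.63 for Bhlhe40 (0.512). Nr1d1 shares 263 of its 3077 exonic bases (8.55%) with Thra, a thyroid hormone receptor gene on the opposite strand, and whether counting used the strand is not given in the sources used here. Thra held 663 to 1148 reads per library and Nr1d1 1811 to 4786.

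Nr1d2 (chr14:18204054-18239127, minus strand), which encodes REV-ERBβ, showed no such pattern. It was at 60.2 and 40.02 CPM in WT Fed livers and at 54.4, 48.1 and 52.1 CPM in WT Fasting livers, so the fasted mice all lay between the fed ones. Its log2 fold change was 0.04 (95% interval -0.46 to 0.54, edgeR adjusted p = 0.941). The sign of this value turned when WT Fed mouse 2 or WT Fasting mouse 1 was left out.

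In the plot of each member by liver, the height of WT Fasting mouse 3 in Nr1d1 and Bhlhe40 can be set beside its place in Clock and Rora, which were 0.954 and 1.05 times the mean of mice 1 and 2.

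**Figure D1:**
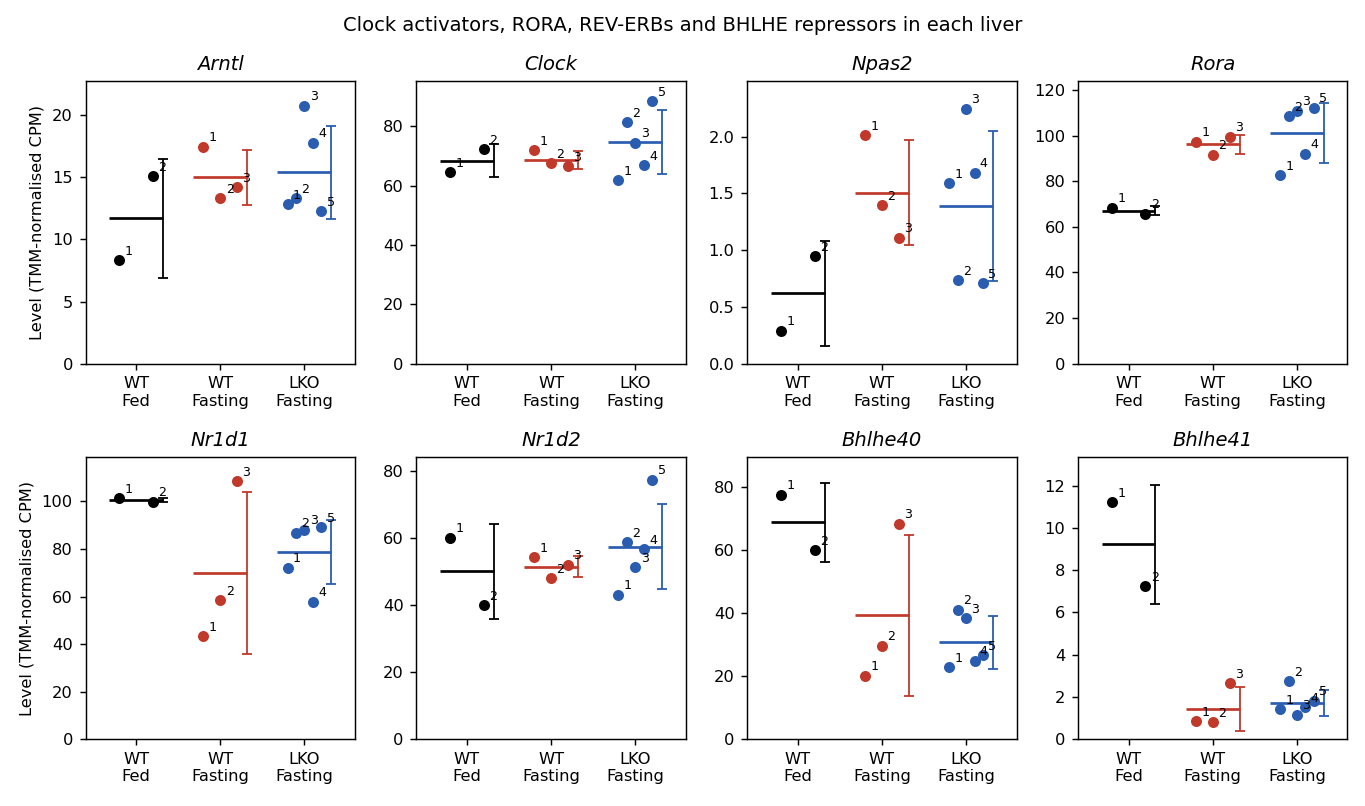
Level of each of the 8 genes in each liver, in TMM-normalized CPM (vertical axes start at 0), with 1 point per mouse and its number beside it. Horizontal lines are group means and the bars beside them run 1 SD either way. Bhlhe41 in WT Fed livers (7.24 and 11.2 CPM) lies above all 8 fasted livers, and WT Fasting mouse 3 lies at the fed level in Nr1d1 and Bhlhe40.

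Rora (chr9:68653786-69388246, plus strand), the activating receptor at the REV-ERB element, was at 68.4 and 65.8 CPM in WT Fed livers. It was at 97.4, 91.6 and 99.4 CPM in WT Fasting livers, so every fasted liver exceeded every fed one. The log2 fold change was 0.52 (standard error 0.14, 95% interval 0.20 to 0.84) with an edgeR adjusted p of 0.0561. Under 3 alternatives Rora was past the threshold: DESeq2 (adjusted p = 0.0145), limma's voomWithQualityWeights (adjusted p = 0.00579) and the edgeR fit of WT Fed and WT Fasting livers alone (adjusted p = 0.0167). It stayed outside with DESeq2 size factors (edgeR adjusted p = 0.0578), filterByExpr (0.0690), library size alone (0.0937) and no filter (0.102), and in all 5 fits that left out 1 WT liver (0.102 to 0.343).

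Of the E-box activators, Npas2 (chr1:39193731-39363234, plus strand) was the rarest, with 13 to 94 reads per library. It was at 0.291 and 0.945 CPM in WT Fed livers and at 2.01, 1.39 and 1.11 CPM in WT Fasting livers, without overlap. The log2 fold change was 1.28 (standard error 0.62, edgeR adjusted p = 0.248), with a 95% interval from -0.07 to 2.64. It was 0.66 without WT Fed mouse 1 and 2.35 without WT Fed mouse 2, neither past the threshold. Npas2, Rora and Bhlhe41 were the 3 of 8 members whose groups did not overlap, while 49.6% of all genes tested did not overlap in this comparison of 3 livers with 2. For Npas2 both WT Fed values were under the 1 CPM that the filter asked of at least 1 library, and all 3 WT Fasting values were over it. Its separation and direction are thus not independent of the filter and are given as description only.

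Arntl (chr7:113207465-113314122, plus strand) was at 8.31 and 15.1 CPM in WT Fed livers, and at 17.5, 13.3 and 14.2 CPM in WT Fasting livers. The fed mice differed from each other more than the group means did, and WT Fed mouse 2 lay among the fasted livers. The log2 fold change was 0.36 (standard error 0.29, edgeR adjusted p = 0.506), and -0.02 without WT Fed mouse 1. Clock (chr5:76212177-76304548, minus strand), the partner of BMAL1, had the narrowest range of the members over the 5 WT livers, relative to its level. It was at 64.5 and 72.3 CPM in WT Fed livers and at 72.0, 67.5 and 66.6 CPM in WT Fasting livers, with a log2 fold change of 0.01 (95% interval -0.33 to 0.34, edgeR adjusted p = 0.988). The interval leaves room for a fold between 0.796 and 1.27. Over the 8 members 5 had a higher level and 3 a lower one in WT Fasting than in WT Fed livers, with a median log2 fold change of 0.02, against 0.04 over all genes tested.

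The plot of fold changes with each liver left out shows which values rest on 1 mouse.

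**Figure D2:**
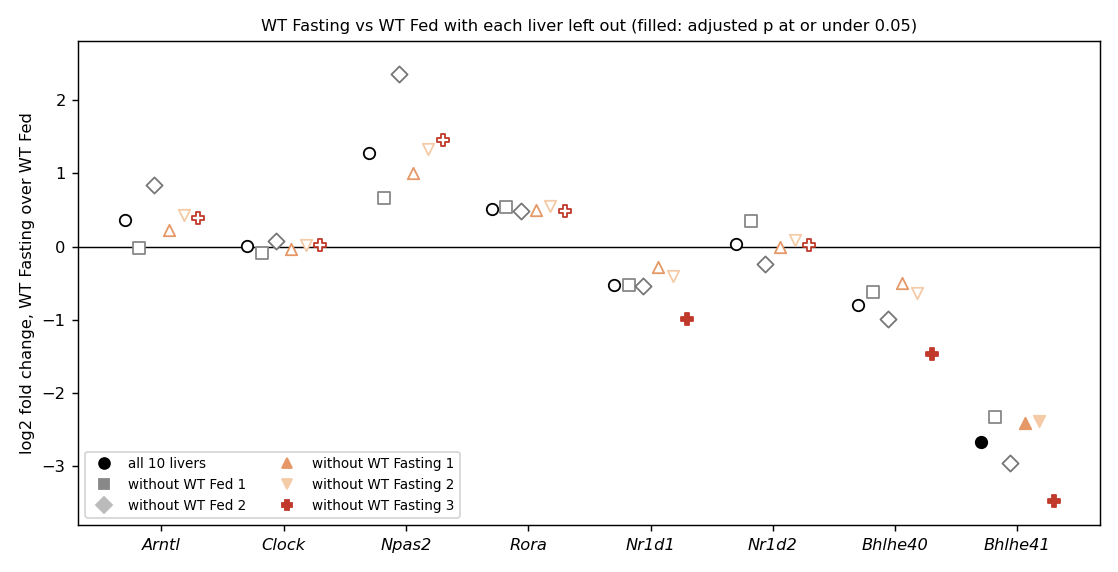
Log2 fold change of WT Fasting over WT Fed livers for each member, with all 10 livers (circles) and with each WT liver left out in turn (other symbols); filled symbols passed an edgeR adjusted p of 0.05. Nr1d1 and Bhlhe40 are filled only without WT Fasting mouse 3, and Bhlhe41 is open without either WT Fed mouse.

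Loss of Nampt from hepatocytes was addressed by NAMPT LKO Fasting against WT Fasting livers, both fasted for 24 h. None of the 8 members passed the test (0 of 8, edgeR), and the count was 0 by DESeq2 and by limma's voomWithQualityWeights. At an unadjusted p under 0.05 it was 0 with all livers, against 6.05% of all genes tested. Without WT Fasting mouse 3 it was 2, Nr1d1 and Bhlhe41, both higher in NAMPT LKO livers, against 3.36% of all genes tested, and 0 members passed after adjustment (edgeR adjusted p = 0.990 for both). Over all genes tested, 0.00742% passed, which is 1 gene, Nampt (log2 fold change -2.81, standard error 0.22, edgeR adjusted p = 0.00101). The groups overlapped for all 8 members, whereas 3.98% of all genes tested did not overlap. Of the members, 6 had a higher and 2 a lower mean, with a median log2 fold change of 0.10 against 0.00 over all genes.

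The width of each interval sets what could have been seen. Clock was at 61.9, 81.4, 74.5, 66.9 and 88.6 CPM in NAMPT LKO mice 1 to 5, around and above the WT Fasting values, and its fold was 1.09 with a 95% interval from 0.902 to 1.31. Rora was at 82.7, 108, 111, 92.1 and 112 CPM, again around the WT Fasting values, with a fold of 1.05 (95% interval 0.885 to 1.25). Arntl was at 12.8, 13.3, 20.8, 17.8 and 12.3 CPM, and its fold of 1.03 had an interval from 0.726 to 1.45. For these 3 genes, changes of 1.5-fold or more in either direction lay outside the interval.

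Nr1d2 was at 43.2, 58.9, 51.4, 56.8 and 77.5 CPM in NAMPT LKO mice 1 to 5, and the fold was 1.12 (95% interval 0.844 to 1.48), which also leaves out such a change. Its highest value was in mouse 5, the liver with 21.1% mitochondrial counts, and the part of that share in the value was not tested. The TMM-normalized levels of Clock, Rora and Nr1d1 were also highest there within the group, but in RPKM, which is scaled to the library total and the exonic length, they were highest in other NAMPT LKO livers. Nr1d1 was at 72.1, 86.8, 88.1, 57.9 and 89.1 CPM, all within the span of the WT Fasting livers, and the fold of 1.12 had an interval from 0.762 to 1.66. Without WT Fasting mouse 3 the log2 fold change of Nr1d1 was 0.63, and without WT Fasting mouse 1 it was -0.08, in neither case past the threshold.

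The rarer and the more variable members were less well measured. Bhlhe40 was at 22.9, 41.2, 38.4, 24.9 and 26.7 CPM in NAMPT LKO livers, above WT Fasting mouse 1 and below mouse 3 in each case, with a fold of 0.781 (95% interval 0.464 to 1.31). Its log2 fold change was -0.36 with all livers and 0.30 without WT Fasting mouse 3. Bhlhe41 was at 1.43, 2.76, 1.17, 1.52 and 1.83 CPM, with an interval of the fold from 0.629 to 2.26. Its log2 fold change was 0.25 with all livers and 1.05 without WT Fasting mouse 3. Npas2 was at 1.59, 0.737, 2.24, 1.68 and 0.709 CPM, with an interval from 0.459 to 1.88. These intervals took in a decrease of 1.5-fold for all 3 genes and an increase of 1.5-fold for Bhlhe41 and Npas2, so that neither could be told from no change with 5 livers against 3.

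NAMPT LKO Fasting livers were also set against WT Fed livers, a comparison that shares its libraries with the other ones and in which fasting and genotype cannot be told apart. Bhlhe41 was 5.31-fold lower (log2 fold change -2.41, standard error 0.42, edgeR adjusted p = 0.00532) and Rora 1.51-fold higher (log2 fold change 0.59, standard error 0.13, edgeR adjusted p = 0.0186) in NAMPT LKO Fasting livers. These were the 2 of 8 members that passed, against 11.2% of all genes tested. Without WT Fed mouse 1 both calls were lost (edgeR adjusted p = 0.0853 for Bhlhe41 and 0.139 for Rora), and without WT Fed mouse 2 that of Rora (0.203), although the log2 fold changes were between -2.70 and -2.07 for Bhlhe41 and between 0.55 and 0.66 for Rora over the 7 fits that left out 1 liver.

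Bhlhe40 was 2.23-fold lower in NAMPT LKO Fasting than in WT Fed livers, with all 5 fasted livers (at most 41.2 CPM) under both fed ones (60.1 and 77.6 CPM). Its log2 fold change was -1.16 (standard error 0.38, edgeR adjusted p = 0.0728), and it passed with DESeq2 (adjusted p = 0.0183) and with voomWithQualityWeights (adjusted p = 0.00916). It also passed with no filter (edgeR adjusted p = 0.0180) and with only the 2 groups fitted (0.0177). It stayed outside with DESeq2 size factors (edgeR adjusted p = 0.0707), library size alone (0.0707) and filterByExpr (0.0738). Nr1d1 also did not overlap, at 57.9 to 89.1 CPM against 99.9 and 101 CPM, but its log2 fold change was -0.35 (standard error 0.29, edgeR adjusted p = 0.485). With Rora and Bhlhe41 this made 4 of 8 members without overlap, against 33.5% of all genes tested. Arntl (log2 fold change 0.40), Npas2 (1.18), Clock (0.13) and Nr1d2 (0.20) overlapped and had edgeR adjusted p-values of 0.390, 0.228, 0.628 and 0.605. Without WT Fed mouse 1 the log2 fold change of Npas2 was 0.55, and without mouse 2 it was 2.24.

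**Figure D3:**
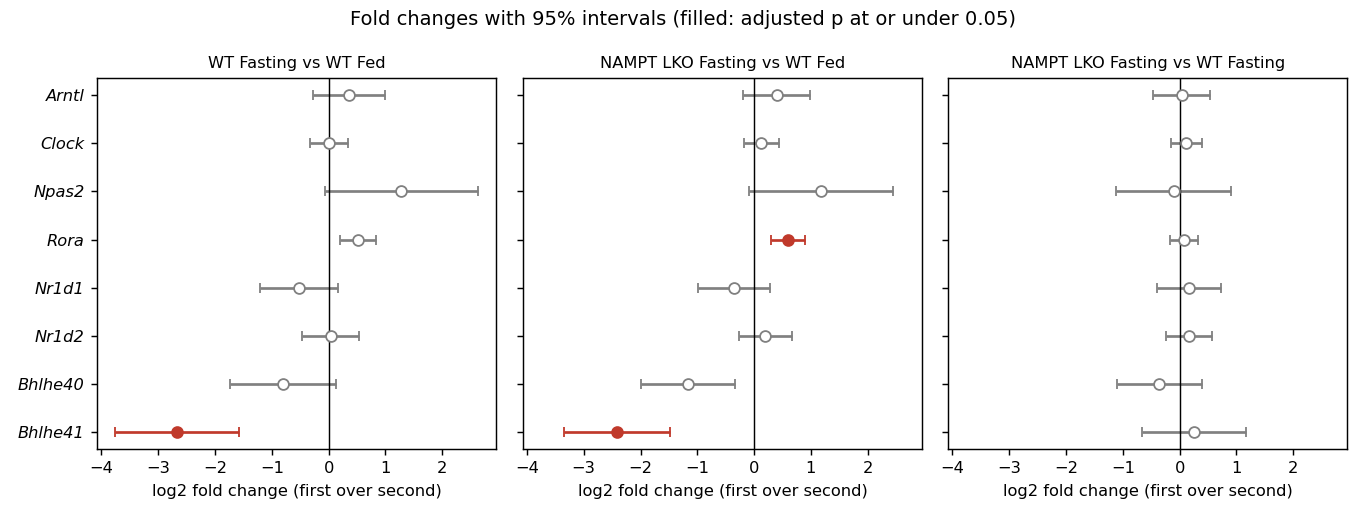
Log2 fold change of each member in the 3 comparisons, with 95% intervals from edgeR's quasi-likelihood fit; filled points passed an adjusted p of 0.05. Bhlhe41 is filled in both comparisons with WT Fed livers and Rora in that of NAMPT LKO Fasting livers, and every interval in the comparison of NAMPT LKO with WT Fasting livers spans 0.

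The spread within a group differed between members. In the 3 WT Fasting livers the SD of the log2 level was 0.96 for Bhlhe41, 0.90 for Bhlhe40 and 0.67 for Nr1d1, against a median of 0.18 over all genes tested. In the same livers it was 0.06 for Clock, 0.06 for Rora and 0.09 for Nr1d2. Npas2, with few reads, had an SD of 0.43 and was lower in WT Fasting mouse 3, at 0.652 times the mean of mice 1 and 2. In Nr1d1, Bhlhe40 and Bhlhe41 mouse 3 was the highest of the 3: it was 3.18 times the mean of mice 1 and 2 in Bhlhe41, 2.74 times in Bhlhe40 and 2.13 times in Nr1d1. It was also 2.07 times their mean in Nampt, 2.57 times in Ciart and 1.95 times in Per2, while Arntl (0.924 times), Clock (0.954 times) and Nr1d2 (1.02 times) were close to it. The low mitochondrial share and the high Kupffer cell and leukocyte markers of this liver, given above, moved with these genes, and their part in the values was not tested. In the 5 NAMPT LKO livers the SD was 0.38 for Bhlhe40, 0.46 for Bhlhe41 and 0.27 for Nr1d1, against a median of 0.27, and Npas2 had the widest, 0.74.

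Levels were compared between genes per exonic length, in RPKM. Nr1d1 was the most abundant, with 14.1 to 35.8 RPKM over the 10 livers, followed by Bhlhe40 (6.198 to 24.5 RPKM), Nr1d2 (8.23 to 13.0 RPKM), Clock (8.35 to 10.8 RPKM), Rora (5.18 to 8.64 RPKM) and Arntl (2.96 to 7.28 RPKM). Bhlhe41 (0.122 to 1.85 RPKM) and Npas2 (0.0628 to 0.477 RPKM) came last. The ranges of Arntl and Bhlhe41 did not overlap in any group, and in all other pairs of neighbours the ranges overlapped in at least 1 group. Nr1d1 exceeded Bhlhe40 and Clock exceeded Rora within each of the 10 livers, whereas Bhlhe40 exceeded Nr1d2, and Bhlhe41 exceeded Npas2, in 5 livers of 10, including both WT Fed livers in each case.

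**Figure D4:**
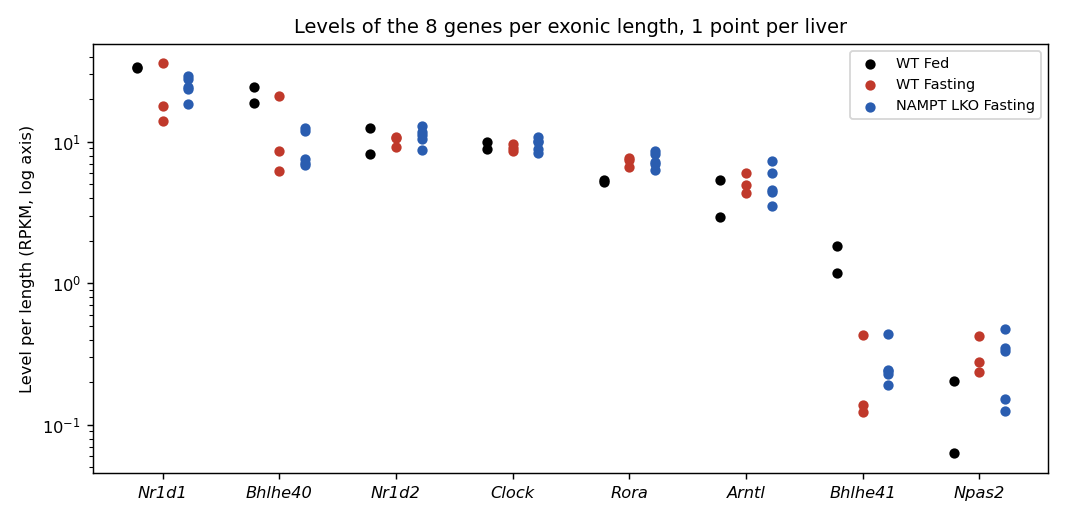
Level of each member per exonic length in RPKM on a log axis, 1 point per liver and 1 colour per group, with genes ordered by the mean of their group means. Bhlhe41 is at 1.19 and 1.85 RPKM in WT Fed livers and at or under 0.436 RPKM in all fasted ones, beside Npas2, while Clock stays between 8.35 and 10.8 RPKM in all 10.

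Arntl and Nr1d1 form the loop in which BMAL1 activates a repressor of its own gene, so their ratio was taken within each liver. On the log2 scale of RPKM, Arntl minus Nr1d1 was -3.52 and -2.64 in WT Fed livers, -1.23, -2.05 and -2.85 in WT Fasting livers, and -2.41, -2.62, -2.003, -1.62 and -2.78 in NAMPT LKO Fasting livers. Nr1d1 exceeded Arntl in every liver. The groups overlapped, since WT Fed mouse 2 lay among the fasted livers. Rora minus Nr1d1, which sets the activating against the repressing receptor, was -2.65 and -2.69 in WT Fed livers, and all 8 fasted livers were above both: -0.92, -1.44 and -2.21 in WT Fasting livers, and between -1.89 and -1.42 in NAMPT LKO livers. Rora alone already separated these livers. Of single genes tested, 49.6% separated WT Fasting and 33.5% NAMPT LKO Fasting from WT Fed livers, and the share of other gene pairs was not counted.

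The rest of the clock was taken as 3 lists of genes. Of 10 clock repressors and outputs (Per1, Per2, Per3, Cry1, Cry2, Ciart, Dbp, Tef, Hlf and Nfil3), 1 rose and 2 fell in WT Fasting against WT Fed livers, where 7.02% of all genes tested passed (360 higher and 586 lower). Per2, a partner of the CRY repressors, fell by 1.70 on the log2 scale (edgeR adjusted p = 0.0232), from 42.9 and 46.6 CPM in fed livers to between 6.25 and 20.3 CPM. Dbp, a D-box activator and E-box target, fell by 1.93 (edgeR adjusted p = 0.0349), and Per1 rose by 0.72 (edgeR adjusted p = 0.0399). The 10 had a median log2 fold change of -0.31, against 0.04 over all genes. These calls rest on few livers: over the fits that left out 1 of the 5 WT livers, those of Per1 and Dbp were lost each time (edgeR adjusted p from 0.0504 to 0.271 for Per1 and from 0.0533 to 0.368 for Dbp), and that of Per2 without WT Fed mouse 1 or 2 or WT Fasting mouse 2 (0.133, 0.130 and 0.0693). With only WT Fed and WT Fasting livers fitted, Per2 and Dbp had edgeR adjusted p-values of 0.0554 and 0.0593.

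In NAMPT LKO Fasting against WT Fed livers, where 11.2% of all genes tested passed (625 higher and 883 lower), 3 of the 10 fell and 0 rose: Per2 (log2 fold change -1.94, edgeR adjusted p = 0.00491), Dbp (-1.72, edgeR adjusted p = 0.0243) and Ciart (-1.998, edgeR adjusted p = 0.0416), which encodes CHRONO, a repressor of BMAL1. Per2 lost its call without WT Fed mouse 1 or 2 (edgeR adjusted p = 0.0538 and 0.0505), Dbp without mouse 1, where its log2 fold change was -0.89 (edgeR adjusted p = 0.398), and Ciart without either of them or without NAMPT LKO mouse 1, 3 or 4 (edgeR adjusted p from 0.0666 to 0.316). In NAMPT LKO against WT Fasting livers 0 of the 10 passed with edgeR (0.00742% of all genes tested), and 0 with DESeq2 or voomWithQualityWeights. At an unadjusted p under 0.05 there were 2 of the 10, both lower, against 6.05% of all genes tested. They were Ciart (log2 fold change -1.37, edgeR unadjusted p = 0.0210) and Per1 (-0.37, edgeR unadjusted p = 0.0257). In both genes WT Fasting mouse 3 lay above every NAMPT LKO liver, and a value without it is not given here.

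Of 7 kinase and ubiquitin ligase genes that set the stability of the clock's repressors, 0 passed in any of the 3 comparisons with edgeR. Of all genes tested, 7.02% passed in WT Fasting against WT Fed livers, 0.00742% in NAMPT LKO against WT Fasting livers and 11.2% in NAMPT LKO Fasting against WT Fed livers. In WT Fasting against WT Fed livers 2 of the 7 had an unadjusted p under 0.05, against 1404 higher and 1601 lower of the 13477 genes tested. With voomWithQualityWeights 1 of the 7 passed, against 3330 of all genes. Neither count is read as a result about these genes.

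Of 10 cofactors of the members, 2 rose in WT Fasting against WT Fed livers (7.02% of all genes passed). Kat2b, an acetyltransferase that works with CLOCK and BMAL1, rose by 0.64 on the log2 scale (edgeR adjusted p = 0.0140), and Sirt1, an NAD-dependent deacetylase, by 0.63 (edgeR adjusted p = 0.0336). In NAMPT LKO Fasting against WT Fed livers, where 11.2% of all genes passed, 3 rose: Kat2b (log2 fold change 0.68, edgeR adjusted p = 0.00513), Sirt1 (0.75, edgeR adjusted p = 0.00868) and Ppargc1a (1.76, edgeR adjusted p = 0.0236), a coactivator of RORs. None fell in either comparison. In NAMPT LKO against WT Fasting livers 0 of 10 passed (0.00742% of all genes tested), also at an unadjusted p under 0.05 (6.05% of all genes tested) and with DESeq2 or voomWithQualityWeights. In WT Fasting against WT Fed livers Sirt1 lost its call whichever WT liver was left out (edgeR adjusted p from 0.0680 to 0.299) and Kat2b without WT Fed mouse 1 or 2 (0.0572 and 0.214). In NAMPT LKO Fasting against WT Fed livers the calls lost without WT Fed mouse 1 or 2 were those of Sirt1 (edgeR adjusted p = 0.0775 and 0.150) and Ppargc1a (0.185 and 0.184), and Kat2b lost its own without mouse 2 (0.127).

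The genes most like Arntl and Nr1d1 over the 10 livers were ranked by the root mean square difference of their log2 levels, each centred on its own mean, among 9141 genes whose mean level reached 5 CPM. For Arntl they were Fam49b (0.20), Rsbn1 (0.20), Mfsd1 (0.21), Fn1 (0.21) and Vps13c (0.22), where Arntl itself had an SD of 0.34 over the livers. For Nr1d1 they were Ticam1 (0.18), Mga (0.22), Pla2g16 (0.24), Slc39a14 (0.24) and Zfp790 (0.24), against an SD of 0.41. Ticam1 was at 37.6 and 36.5 CPM in WT Fed livers and at 16.3, 17.5 and 29.0 CPM in WT Fasting mice 1 to 3, the pattern it was chosen for. The lists describe the same 10 libraries that share depth and group.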

How the data were processed

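Liver RNA of 10 mice was isolated with Trizol, selected with oligo-dT and sequenced. Per the submitters' processing notes, reads were aligned with STAR 2.5.1a to GRCm38 and counted per Ensembl gene with featureCounts 1.4.6-p5. The authors deposited the count of reads per gene without normalization, the CPM value (the count scaled to the total of its library) and the RPKM value (CPM per kilobase of exon); the deposited CPM values were recomputed from the counts and matched. Strand setting is not given in the sources used here.

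From there on, everything was computed here. Of 41388 genes, 13477 had over 1 CPM in at least 1 library and were not among 355 listed rRNA genes. TMM factors were applied to the counts, and edgeR 4.0.16 in R 4.3.3 fitted a mean to each of the 3 groups over all 10 libraries (quasi-likelihood test), with genes called at a Benjamini-Hochberg adjusted p of at most 0.05; the 95% intervals are from the same fit. RPKM values were used as deposited, for levels between genes only. Alternatives were DESeq2 1.42.0, limma 3.58.1 voomWithQualityWeights, other scalings and filters, fits restricted to the pair of groups at issue, leaving out single libraries, and a block for replicate number. The study's methods name voomWithQualityWeights, whereas its figure legend for these data names edgeR's exact test. The scripts were tested on simulated data. No pair of libraries was a duplicate.

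The members, the lists and the rule for named genes (members, Nampt, listed genes that passed or, in a list with none, the one with the lowest p, and the 5 genes most like Arntl or Nr1d1) were chosen with earlier results of these data known; some genes and a list that the rule selects are not reported here. Groups and numbers come from the labels; WT Fed mice are numbered in accession order. With 2 to 5 mice per group, p-values test a difference of group means against a spread between mice estimated over all 3 groups together, with information shared across genes. The spread among the 2 WT Fed mice is thus hardly measured by itself.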

Additional observations from a re-analysis of the deposited data

How the results depend on the processing

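The limits are the 2 WT Fed livers, the unknown hour of collection and the few reads of Npas2 and Bhlhe41. Genes passing in WT Fasting against WT Fed livers numbered 946 with edgeR, 1647 with DESeq2, 3330 with voomWithQualityWeights, 1638 with only the 2 groups fitted and 107 to 782 with 1 liver left out. Of the members, 1 passed with edgeR, 2 with DESeq2, 4 with voomWithQualityWeights (Bhlhe41, Rora, Nr1d1 and Bhlhe40), 2 with only the 2 groups fitted and 0 to 3 with 1 liver left out. In NAMPT LKO Fasting against WT Fed livers 1508 genes passed, 4284 with voomWithQualityWeights and 227 to 2833 with 1 liver left out, and 0 to 2 members with 1 liver left out. In NAMPT LKO against WT Fasting livers 1 gene passed, 21 with DESeq2, 2 with library size alone, 17 with no filter, 3 with filterByExpr and 1 to 2 with 1 liver left out, and 0 members under any alternative. Scaling by library size alone left 25.7% of the called genes higher in WT Fasting than in WT Fed livers, where TMM gave 38.1%, and 26.1% higher in NAMPT LKO Fasting than in WT Fed livers, where TMM gave 41.5%.

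Of the lists in WT Fasting against WT Fed livers, the cofactors had 2 calls with edgeR, 4 with voomWithQualityWeights, 1 with library size alone, 1 with no filter and 0 to 1 with 1 liver left out; the repressors and outputs had 3, 1 with only the 2 groups fitted (Per1) and 0 to 1 with 1 liver left out; the kinase and ubiquitin ligase genes had 0, and 1 with voomWithQualityWeights. In NAMPT LKO Fasting against WT Fed livers voomWithQualityWeights gave 5 calls of the cofactors, and with 1 liver left out the repressors and outputs had 0 to 3 calls and the cofactors 0 to 4. The cause of these shifts was not tested.

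No value that passed the test with all 10 livers changed its sign. In WT Fasting against WT Fed livers the log2 fold change of Clock (0.01 with edgeR) was -0.00075 with DESeq2, -0.00078 with DESeq2 size factors, -0.0577 with library size alone, -0.0096 with no filter, -0.0027 with filterByExpr and -0.0079 with only the 2 groups fitted, and that of Nr1d2 was -0.0225 with library size alone. In NAMPT LKO against WT Fasting livers Bhlhe40 was 0.11 with voomWithQualityWeights. With 1 liver left out, the values were -0.0222 to 0.84 for Arntl, -0.0865 to 0.0817 for Clock, -0.23 to 0.35 for Nr1d2 and -0.11 to 0.55 for Nampt in WT Fasting against WT Fed livers, -0.0738 to 0.51 for Nr1d2 in NAMPT LKO Fasting against WT Fed livers, and -0.0936 to 0.16 for Arntl, -0.35 to 0.16 for Npas2, -0.0831 to 0.63 for Nr1d1, -0.67 to 0.30 for Bhlhe40 and -0.0216 to 1.05 for Bhlhe41 in NAMPT LKO against WT Fasting livers.

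Numbers 1 to 3 recur in both fasted groups but mark different mice. The deviations of same-numbered livers correlated at 0.0945, 0.0953 and 0.0878 across genes, and each liver correlated best with its own number, a hint from the data and not from the design. In the 6 livers numbered 1 to 3, 0 genes passed with the replicate block and 0 without it. Nampt had a log2 fold change of -2.78 with the block (edgeR adjusted p = 0.106) and -2.87 without it (edgeR adjusted p = 0.268), Nr1d2 one of -0.0203 with the block and -0.0107 without it, and Npas2 one of 0.0255 without it.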
